A study of Mus musculus with 6 samples.

Results

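Dense clusters of accessible regions away from promoters were examined in splenic regulatory T cells (Tregs) profiled by ATAC-seq. The clusters were chosen by the density of regions in the control list. Regions of the CREBfl/fl list that did not overlap 1 kb on either side of a protein-coding start site were joined over gaps of 5 kb or less, and clusters with 8 or more regions were kept as dense domains. This gave 637 dense domains of 42414 clusters, holding 6779 of 81267 distal CREBfl/fl regions. Foxp3creCREBfl/fl mice carry floxed alleles of *Creb1*, the gene of the transcription factor CREB, and a Cre recombinase driven from *Foxp3*, so that CREB is lost in Foxp3-expressing cells. CREBfl/fl mice carry the floxed alleles without the Cre and serve as controls. The library labels read KO and WT, and the genotypes behind them are those the study describes. The mice were 6 to 12 weeks old, and the labels give 3 libraries per group, while the deposited data are 1 list of peaks per group. There is therefore no replicate of any value, no difference between mice could be tested, and all intervals cover counting error only. In such bulk lists, fewer cells of a type and less signal per cell cannot be told apart.

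Regulatory T cells restrain immune responses and depend on the transcription factor FOXP3. Enhancers are stretches of DNA, often far from a start site, where transcription factors bind and open the chromatin, and clusters of many enhancers are known to lie at genes that define the identity of a cell. CREB binds the cyclic AMP response element (CRE) TGACGTCA and its half-site TGACG, and is activated downstream of cyclic AMP and of the T cell receptor. FOS and JUN proteins, and BATF with them, bind the AP-1 word TGACTCA or TGAGTCA.

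In ATAC-seq a transposase cuts open DNA, and the number of sequenced fragments that cover the summit of a peak is called the pileup here. The pileup was recovered from the authors' fold and p-value. The Foxp3creCREBfl/fl list held 94499 regions over a genome background of 5.09 fragments, and the CREBfl/fl list held 100771 regions over 8.44 fragments, so the CREBfl/fl list was 1.66 times as deep if fragments were handled alike in both. Each pileup was divided by the genome background of its own list before groups were compared. Start sites of all 10 Treg identity genes, *Foxp3* among them, lay within 1 kb of a region in both lists. The same held for 2 of 5 B cell, 2 of 5 myeloid, 3 of 5 CD8 and NK cell and 2 of 5 erythroid markers. In Foxp3creCREBfl/fl these were *Ebf1*, *Ms4a1*, *Itgam*, *Cebpa*, *Cd8b1*, *Eomes*, *Klrb1c*, *Klf1* and *Epor*. Others, such as *Cd79a*, *Csf1r*, *Lyz2*, *Cd8a* and *Gata1*, had no region there. Of all 41219 start sites, 58.6% lay within 1 kb of a Foxp3creCREBfl/fl region and 59.2% of a CREBfl/fl region. The purity of the cells was not tested. At *Creb1* itself, 12 Foxp3creCREBfl/fl and 13 CREBfl/fl regions were called, and its promoter had pileups of 757 in Foxp3creCREBfl/fl and 1065 in CREBfl/fl. The position of the floxed segment was not examined, so these values do not check the deletion.

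Some sequences are shown first, and the pileups of their regions are given further below. Only 3 regions of the dense domains passed the stricter of the rules used below, all with a lower pileup in Foxp3creCREBfl/fl. Their summits lay 5′ of the coding transcripts of *Ctla4*, in an intergenic stretch whose nearest start site is that of *Pabpc1*, and in an intron of *Igsf23*. The bases around each summit are given on the forward strand of GRCm38, with a half-site in capitals where there is one.
Ctla4, chr1:60882943-60883043: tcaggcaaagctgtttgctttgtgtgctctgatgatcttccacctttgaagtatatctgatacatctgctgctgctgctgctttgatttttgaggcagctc
Pabpc1, chr15:36638990-36639090: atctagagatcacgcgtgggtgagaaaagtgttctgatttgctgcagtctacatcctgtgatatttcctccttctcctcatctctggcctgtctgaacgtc
Igsf23, chr7:19949124-19949224: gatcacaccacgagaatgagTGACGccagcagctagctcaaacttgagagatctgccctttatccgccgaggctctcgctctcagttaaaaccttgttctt
The half-site occurred in the *Igsf23* window only. A full CRE was found in 38 member regions. The following windows are from those with the lowest ratios of Foxp3creCREBfl/fl to CREBfl/fl, with the CRE in capitals.
Usp3, chr9:66598707-66598774: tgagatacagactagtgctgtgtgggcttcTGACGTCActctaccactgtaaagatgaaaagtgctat
Fam169b, chr7:68283933-68284000: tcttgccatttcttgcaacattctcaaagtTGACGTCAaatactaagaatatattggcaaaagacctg
Pitpnm2, chr5:124210886-124210953: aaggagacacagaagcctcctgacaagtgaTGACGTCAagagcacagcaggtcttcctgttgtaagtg
Leprotl1, chr8:34139425-34139492: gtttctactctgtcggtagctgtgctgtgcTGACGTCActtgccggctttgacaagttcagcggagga
The next windows hold a CRE too, but had higher ratios, with intervals above 0.
Il6st, chr13:112414134-112414201: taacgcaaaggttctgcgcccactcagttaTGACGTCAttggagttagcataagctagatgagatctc
Atxn1, chr13:45917487-45917554: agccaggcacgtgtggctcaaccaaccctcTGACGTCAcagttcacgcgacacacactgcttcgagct
The last set holds an AP-1 word in regions with higher pileups in Foxp3creCREBfl/fl, with 1 such word in capitals.
Fars2, chr13:36203218-36203284: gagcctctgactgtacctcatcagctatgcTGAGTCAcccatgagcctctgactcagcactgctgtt
Tox, chr4:6801758-6801824: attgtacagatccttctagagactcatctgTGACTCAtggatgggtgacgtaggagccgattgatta
Cd28, chr1:60749449-60749515: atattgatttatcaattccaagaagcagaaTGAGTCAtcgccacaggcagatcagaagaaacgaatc

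A dense domain was typically a short gene-internal stretch with regions about 1 kb apart. The domains spanned a median of 16.9 kb (from 3.23 to 64.4), and regions covered a median of 16.8% of that length. They held a median of 9 CREBfl/fl regions (from 8 to 46), and neighbouring regions were separated by a median gap of 1.09 kb. At the threshold, 210 domains had 8 regions, and 343 clusters with 7 regions fell just outside. Of the 637 domains, 482 overlapped the body of a protein-coding gene and 433 overlapped 1 such gene only. Chromosome 11 held the most domains, with 59, and chromosome X the fewest, with 9. The share of distal regions in dense domains ran from 4.31% on chromosome 18 to 11.3% on chromosome 11.

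Member regions lay in introns more often than other distal regions did. The summit was in an intron for 65.2% of member regions (Wilson 95% interval 64.1 to 66.3), against 52.0% of the other 74488 distal regions (51.6 to 52.4). It was in an exon for 3.16% of member and 4.32% of other distal regions, and between genes for 31.6% of member and 43.7% of other distal regions. The genes that overlapped a domain were long, with a median length of 79.0 kb against 17.0 kb for other protein-coding genes. Member regions also had higher pileups in CREBfl/fl, with a median of 120 against 72 in the other distal regions, on a higher local background. That background was a median of 3.30 times the genome background in member regions and 1.15 times in the others. Density chose the domains, and the part of the selection in these values was not tested.

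The domain with the most regions overlapped *Sfi1*, which encodes a centrosomal protein, and *Drg1* on chromosome 11 (3123218 to 3187601), with 36 distal regions in Foxp3creCREBfl/fl and 46 in CREBfl/fl. Its local background was 1.23 times the genome background, against 2.86 to 9.07 times in the next 11 domains by size. The domain of *Ets1*, a transcription factor of lymphocytes, had 30 regions in Foxp3creCREBfl/fl and 33 in CREBfl/fl, and its local background was the highest of these, 9.07 times. *Inpp4b*, which encodes a phosphoinositide phosphatase, had 30 regions in Foxp3creCREBfl/fl and 31 in CREBfl/fl in its largest domain. *Ikzf2*, which encodes the Treg transcription factor Helios, had 29 regions in Foxp3creCREBfl/fl and 28 in CREBfl/fl, the only one of the 12 largest domains with more regions in Foxp3creCREBfl/fl.

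The domain over *She* and *Il6ra*, the gene of the IL-6 receptor chain, had 26 regions in Foxp3creCREBfl/fl and 27 in CREBfl/fl. At *Cyth1*, which encodes a regulator of ARF GTPases, there were 20 in Foxp3creCREBfl/fl and 26 in CREBfl/fl. The domain over *Gimap9*, *Gimap4* and *Gimap6*, genes of lymphocyte GTPases, had 19 in Foxp3creCREBfl/fl and 26 in CREBfl/fl. The domain over *Gm17490* and *Il2ra*, the gene of the high-affinity IL-2 receptor chain CD25, had 22 in Foxp3creCREBfl/fl and 25 in CREBfl/fl. The same numbers, 22 in Foxp3creCREBfl/fl and 25 in CREBfl/fl, were found over *B3gnt2* and *Gm28048*. *Peli1*, which encodes a ubiquitin ligase that limits T cell activation, had 17 in Foxp3creCREBfl/fl and 24 in CREBfl/fl. *Coro2a*, which encodes a coronin, had 20 in Foxp3creCREBfl/fl and 23 in CREBfl/fl, and *Prkcq*, which encodes protein kinase C theta, had 18 in Foxp3creCREBfl/fl and 23 in CREBfl/fl.

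Several genes carried more than 1 domain. *Inpp4b* had 4 domains with 63 Foxp3creCREBfl/fl and 66 CREBfl/fl regions in all. *Ikzf2* had 3 with 53 in Foxp3creCREBfl/fl and 59 in CREBfl/fl, and *Bcl11b*, which encodes a transcription factor of T cell commitment, had 3 with 34 in Foxp3creCREBfl/fl and 40 in CREBfl/fl. *Cytip*, which encodes a partner of cytohesin-1, had 3 with 29 in Foxp3creCREBfl/fl and 36 in CREBfl/fl. The other genes with 3 or 4 domains were *Gm20388*, *Rad51b*, *Prkch*, *Sept9*, *Mbnl1*, *Map4k4*, *Akap13* and *Arhgef3*. Of these 12 genes only *Prkch*, which encodes protein kinase C eta, had as many Foxp3creCREBfl/fl as CREBfl/fl regions, 41 of each.

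Dense domains overlapped many genes of the T cell lists and few of the lists of other cells. Of 14 genes of T cell receptor signaling, 10 overlapped a domain, and so did 8 of 12 naive and central T cell genes, 6 of 14 effector T cell transcription factors and 4 of 10 Treg identity genes. Among all 21728 protein-coding genes it was 454, or 2.09%. Of 17 genes of the CREB family, its coactivators and its classical targets, 3 overlapped a domain. None of a list of 13 genes that the study names did, nor any of the 5 B cell, the 5 CD8 and NK cell or the 5 erythroid markers. That list is not complete, since the study also names *Ctla4*, *Nrp1*, Helios (*Ikzf2*) and CD25 (*Il2ra*). These are the 4 Treg identity genes with a domain. Of the 5 myeloid markers *Spi1* did, with 9 regions in Foxp3creCREBfl/fl and 8 in CREBfl/fl. Long genes can hold more regions, and the lists were not matched on length. The lists were also chosen with earlier results of these data known, so this contrast was given no test.

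The Treg identity genes with a domain differed in the summed pileup of their shared regions. A summed ratio is the log2 ratio of Foxp3creCREBfl/fl to CREBfl/fl relative to the median of all shared regions, and each such ratio would be 0.15 higher without that shift. The 3 domains of *Ikzf2* had summed ratios of 0.12 (95% interval 0.04 to 0.20), 0.20 (0.06 to 0.33) and 0.10 (0.03 to 0.18), all above 0. The domain at *Il2ra* had -0.15 (-0.22 to -0.08), with pileups summing to 2874 in Foxp3creCREBfl/fl and 4772 in CREBfl/fl. Both domains that overlapped *Ctla4*, the gene of an inhibitory receptor of Tregs, were below 0, at -0.38 (-0.50 to -0.27) and -0.13 (-0.20 to -0.06). Both domains of *Nrp1*, which encodes neuropilin-1, had intervals that included 0, at -0.08 and -0.07.

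Among the naive and central T cell genes with the largest domains were *Ets1*, *Foxp1*, *Foxo1* and *Ccr7*. *Ets1* had a summed ratio of -0.06 (-0.11 to -0.003). *Foxp1*, which encodes a forkhead factor of quiescent T cells, had -0.28 (-0.36 to -0.20) in the larger of its domains, with 19 regions in Foxp3creCREBfl/fl and 21 in CREBfl/fl, and -0.18 (-0.31 to -0.05) in the other. *Foxo1*, a regulator of T cell homing, had -0.003 (-0.09 to 0.08) with 17 regions in each list. *Ccr7*, a receptor for homing to lymph nodes, had -0.05 (-0.17 to 0.06).

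Domains of the other T cell lists lay on both sides of 0. Of T cell receptor signaling, the larger *Prkcq* domain had -0.13 (-0.20 to -0.06) and the larger domain of *Fyn*, which encodes a SRC family kinase, -0.03 (-0.13 to 0.06). The domains of *Cd6*, which encodes a surface receptor of T cells, had 0.03 and -0.13, and those of *Ptprc*, the gene of CD45, -0.03 and -0.09. *Cd28*, the gene of the costimulatory receptor, had 0.05 (-0.04 to 0.15) with 12 regions in Foxp3creCREBfl/fl and 11 in CREBfl/fl. Of the effector transcription factors, *Tox* had 0.17 (0.03 to 0.31) in its larger domain, *Irf4* -0.09 (-0.19 to 0.001), *Nfatc1* -0.01, *Runx1* -0.002, and *Ikzf1*, which encodes Ikaros, -0.02 in one and -0.26 (-0.38 to -0.15) in the other domain. Of the CREB-related genes, *Crtc3*, which encodes a CREB coactivator, had -0.15 (-0.27 to -0.04), *Sik3*, a kinase that restrains these coactivators, -0.07 (-0.20 to 0.06), and *Pde4b*, which encodes a phosphodiesterase that degrades cyclic AMP, 0.11 (-0.04 to 0.26).

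Most dense domains had fewer called regions in Foxp3creCREBfl/fl. In 434 of 637 domains (68.1%, 64.4 to 71.6) the number of distal regions was lower in Foxp3creCREBfl/fl, in 117 it was equal and in 86 it was higher. The domains held a median of 9 Foxp3creCREBfl/fl regions (from 2 to 36) and also of 9 CREBfl/fl regions, and 438 domains still held 8 or more in Foxp3creCREBfl/fl. The domains were selected on the density of the CREBfl/fl list, and with CREBfl/fl regions limited to those callable at the Foxp3creCREBfl/fl depth, 409 of 621 domains had fewer. When domains were built by the same rule on the Foxp3creCREBfl/fl list, 498 were found, of which 149 had fewer Foxp3creCREBfl/fl than CREBfl/fl regions and 219 had more. Built on merged regions of both lists, 717 domains were found. Of these, 423 had fewer Foxp3creCREBfl/fl regions, 140 as many and 154 more. The Foxp3creCREBfl/fl list was shorter as a whole, with 94499 regions against 100771, and the same count over smaller clusters was not made. Of the 498 domains built on the Foxp3creCREBfl/fl list 406 overlapped one of the 637 (81.5%), and 400 of the 637 overlapped one of the 498 (62.8%). The domains built on Foxp3creCREBfl/fl that overlapped none of the 637 included one at *Laptm5*, which encodes a lysosomal protein of lymphocytes, with 15 regions in Foxp3creCREBfl/fl and 13 in CREBfl/fl, and one at *Arap2*, with 11 in Foxp3creCREBfl/fl and 4 in CREBfl/fl. They were chosen after their values were seen.

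**Figure D1:**
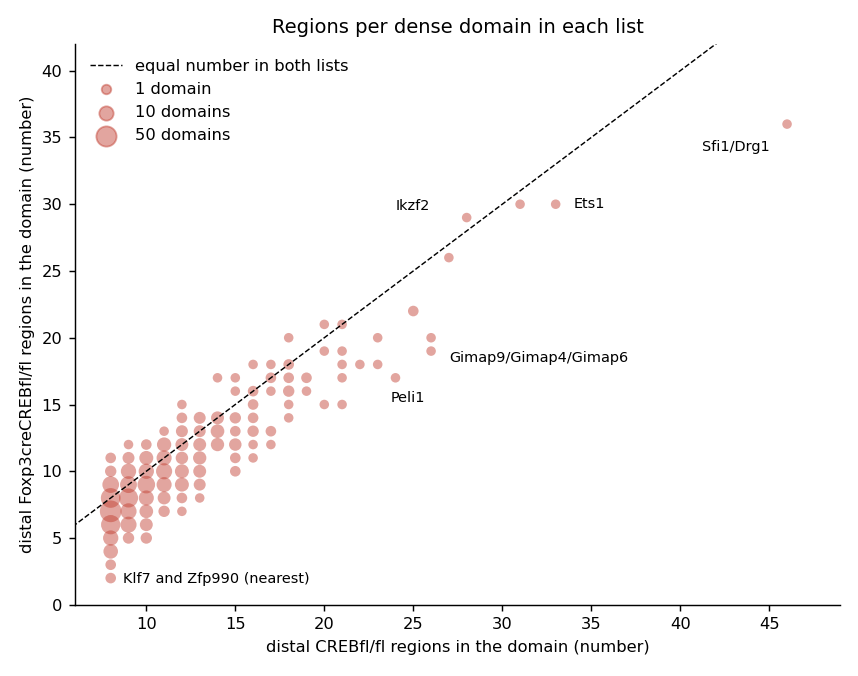
Number of distal Foxp3creCREBfl/fl regions (vertical axis) against the number of distal CREBfl/fl regions (horizontal axis) in each of the 637 dense domains; the area of a point grows with the number of domains at that position and the dashed line marks equal numbers. The *Sfi1* and *Drg1* domain lies farthest to the right, with 36 regions in Foxp3creCREBfl/fl and 46 in CREBfl/fl, and 434 domains lie below the line.

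The largest losses in number were 10 regions at *Sfi1* and *Drg1*, 7 each at the *Gimap* genes and at *Peli1*, and 6 each at *Cyth1* and at one domain of *Bcl11b*, which had 15 regions in Foxp3creCREBfl/fl and 21 in CREBfl/fl. Domains at *Klf7* and nearest to *Zfp990*, each with 2 Foxp3creCREBfl/fl and 8 CREBfl/fl regions, also lost 6. The summed pileup holds shared regions only, so regions called in CREBfl/fl alone are left out of it. It therefore cannot show whether pileup fell together with the loss in number. The shared regions that remained did not have a lower summed pileup in Foxp3creCREBfl/fl at all of these domains. At *Peli1* the 16 shared merged regions had a summed ratio of 0.09 (-0.01 to 0.20), and at the *Gimap* genes the 19 shared ones had 0.06 (-0.02 to 0.13). At *Sfi1* and *Drg1* the ratio was -0.15 (-0.22 to -0.08), at *Cyth1* -0.12 (-0.18 to -0.05) and at *Bcl11b* -0.09 (-0.17 to -0.01).

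Most member regions were called again in Foxp3creCREBfl/fl. Of all distal CREBfl/fl regions, 18% had no counterpart, that is, no Foxp3creCREBfl/fl region sharing at least 1 bp. Among the 6779 member regions 1144 had none (16.9%), against 13452 of the other 74488 (18.1%). So 83.1% of member regions (82.2 to 84.0) and 81.9% of the others (81.7 to 82.2) had a counterpart. The first and last regions of a domain had one in 83.5% and the inner ones in 83.0%. In domains of 8 regions the share was 81.1%, and in clusters of 7, just below the threshold, it was 81.3%. Of the 637 domains, 101 had a counterpart for every member region.

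The comparison with other distal regions depended on how strength was measured, in bins chosen after seeing the data. Within 5 bins of equal size of all distal regions by CREBfl/fl pileup, member regions had a counterpart less often, for example 59.4% (56.3 to 62.4) against 80.8% (80.2 to 81.5) in bin 2. Within 5 bins by the authors' -log10 p, which accounts for the local background, the shares in bin 2 were 71.9% (69.5 to 74.2) of member and 74.6% (73.9 to 75.3) of other distal regions, and in the lowest bin 38.8% (36.1 to 41.7) of member and 39.1% (38.3 to 39.9) of other. Averaged over the bins by the number of member regions, the difference was -8.43 points by pileup and -0.61 points by -log10 p, but 9.86 points, in the other direction, by the authors' fold and -4.54 points by local background. Member regions with no counterpart had a median CREBfl/fl pileup of 54, against 142 for those with one.

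**Figure D2:**
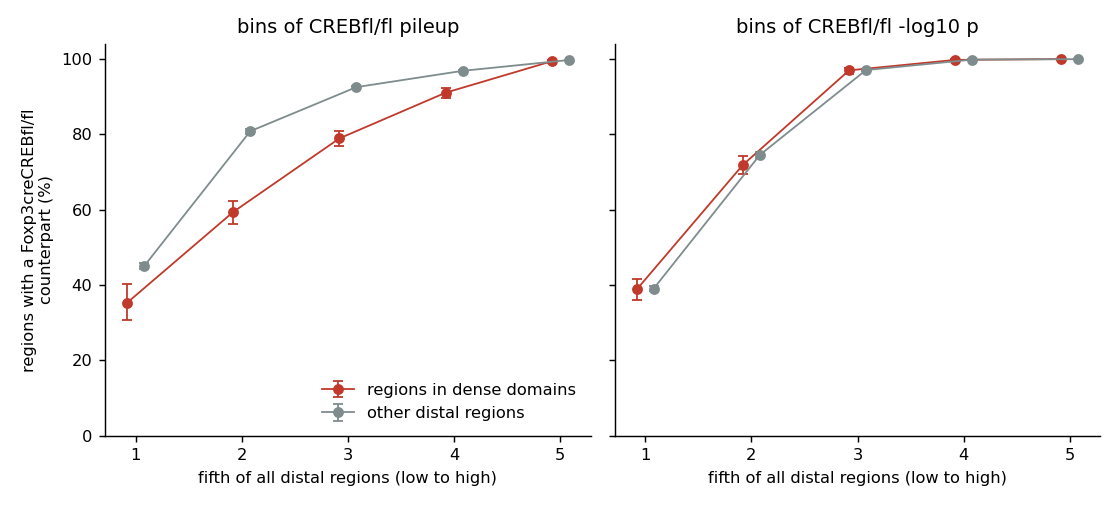
Percentage of distal CREBfl/fl regions with a Foxp3creCREBfl/fl counterpart (vertical axis) in 5 bins of all distal regions (horizontal axis) by CREBfl/fl pileup (left) and by -log10 p (right), for regions in dense domains and for other distal regions, with Wilson 95% intervals. In bin 2 the shares by pileup are 59.4% in dense domains and 80.8% elsewhere, and by -log10 p 71.9% in dense domains and 74.6% elsewhere.

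Most of the strongest member regions with no counterpart lay on a high local background. An exonic stretch of the *Prdx2* and *Junb* domain had a CREBfl/fl pileup of 341 on a local background of 24.0 times the genome background, and one in an intron of *Cytip* had 272 on 17.9 times. An exception was in the domain nearest to *Pabpc1* (36647957 to 36648112 on chromosome 15), with 195 on 4.02 times. The reverse was rarer. Of 5982 distal Foxp3creCREBfl/fl regions in dense domains 177 had no CREBfl/fl counterpart (2.96%, 2.56 to 3.42), against 7.72% (7.52 to 7.92) of those elsewhere. CREBfl/fl density chose the domains, so this was given no test. They lay in 150 domains and had a median pileup of 45. The highest was also at *Cytip*, with a pileup of 170 in Foxp3creCREBfl/fl.

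Relative to the median of all shared regions, pileups within dense domains were slightly lower in Foxp3creCREBfl/fl, and without that shift their median ratio was 0.10, above 0. Regions of both lists that overlapped were merged, which gave 5495 shared member regions with a pileup in each list. Their median relative log2 ratio was -0.054, against -0.004 in 59696 other shared distal regions, and 58.9% of them lay under 0 (57.6 to 60.2), against 50.5% (50.1 to 50.9). The ratio ran from -1.81 to 1.47. Among all shared distal regions 8.23% had an interval wholly below 0 and 5.26% one wholly above 0. In the dense domains 615 had an interval below 0 (11.2%, 10.4 to 12.1), against 7.96% of other distal regions, and 216 had one above 0 (3.93%, 3.45 to 4.48), against 5.38%. Member regions had the higher pileups, hence narrower intervals, and the part of this in the shares was not tested.

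The median difference was small beside the spread. Domains built on the Foxp3creCREBfl/fl list had a median of -0.053, against -0.004 outside them. Within the 5 bins by local background, chosen after seeing the data, members differed from other distal regions by -0.014 in the median instead of -0.049. Regions of 1 domain had an SD of 0.25 around their domain, of which counting error gives 0.22, and the SD between domains was 0.11 over 635 domains with at least 2 such regions.

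By the stricter rule, a difference of at least 2-fold and 5 counting SDs, 0.121% of all shared regions were lower and 0.0841% higher in Foxp3creCREBfl/fl. In the dense domains 3 of 5495 were lower (0.0546%, 0.0186 to 0.160), and 0 were higher, which allows a share of up to 0.0546% by a limit of 3 counts and of up to 0.0699% by the Wilson interval. The first was the region 5′ of *Ctla4* shown above (chr1:60882767-60883143), with a pileup of 176 in Foxp3creCREBfl/fl and 684 in CREBfl/fl, a ratio of -1.38 (-1.63 to -1.14). The second, with *Pabpc1*, which encodes a poly(A)-binding protein, as the nearest gene (chr15:36638933-36639222), had 50 in Foxp3creCREBfl/fl and 262 in CREBfl/fl, a ratio of -1.81 (-2.28 to -1.37). The third, in an intron of *Igsf23* (chr7:19949019-19949315), had 126 in Foxp3creCREBfl/fl and 394 in CREBfl/fl, a ratio of -1.06 (-1.37 to -0.77).

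The 3 regions differed in their neighbourhood. Around the *Ctla4* one, 10 of the 11 member regions had a counterpart. The region at 60886631 to 60887418, over the start of a noncoding transcript of the gene, had 337 in Foxp3creCREBfl/fl and 299 in CREBfl/fl, a ratio of 0.75 (0.52 to 0.98). Those at 60875944 to 60876107 and 60888731 to 60889144 were lower, at -0.92 (-1.48 to -0.39) and -0.70 (-1.14 to -0.28). The 6 others with a counterpart had intervals that included 0. At *Igsf23* the other 8 shared regions lay between -0.18 and 0.17, and the domain as a whole had 10 regions in each list. In the domain nearest to *Pabpc1*, the neighbouring region (36640641 to 36641189) was lower too, with 263 in Foxp3creCREBfl/fl and 775 in CREBfl/fl, a ratio of -0.98 (-1.19 to -0.77). Another (36649794 to 36650442) was higher, at 0.28 (0.06 to 0.49), and 4 of its 10 regions had no counterpart.

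**Figure D3:**
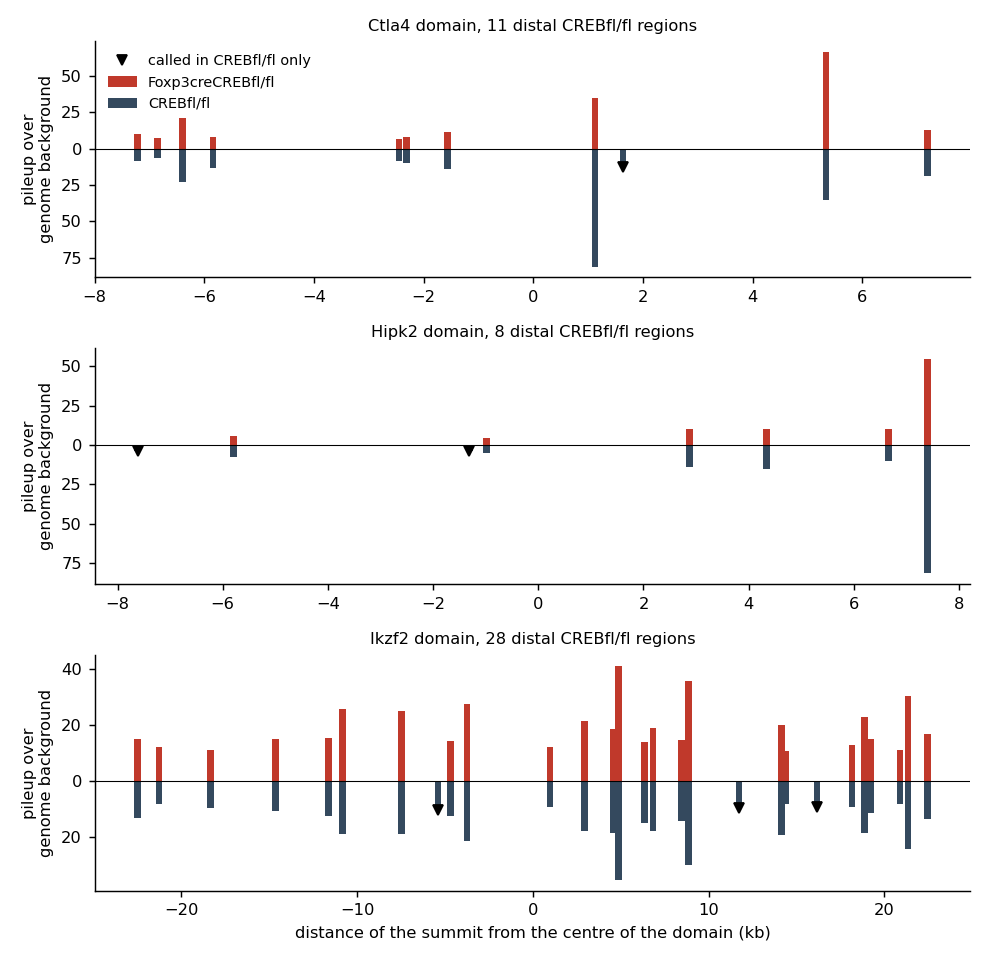
Pileup over the genome background of each list (vertical axes, Foxp3creCREBfl/fl upward and CREBfl/fl downward) against the distance of the summit from the centre of the domain in kb (horizontal axes) for dense domains at *Ctla4*, *Hipk2* and *Ikzf2*; triangles mark regions called in CREBfl/fl only, and regions that share a counterpart show the highest pileup of their merged region. At *Ctla4* the region with pileups of 176 in Foxp3creCREBfl/fl and 684 in CREBfl/fl stands beside one with 337 in Foxp3creCREBfl/fl and 299 in CREBfl/fl.

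Summed over a domain, ratios ran from -0.64 to 0.39 with a median of -0.07. The interval of the sum lay below 0 in 215 domains and above 0 in 48, and the sum itself was under 0 in 436. Sums were not made for smaller clusters, so these counts have no like share beside them. Of single shared regions outside the domains, 7.96% had an interval below 0 and 5.38% one above 0. Sums of many pileups have narrower intervals, and the part of this in the counts was not tested. The lowest was at *Hipk2*, which encodes a nuclear kinase, with pileups summing to 485 in Foxp3creCREBfl/fl and 1127 in CREBfl/fl (-0.64, -0.79 to -0.48). All 6 of its shared regions were under 0, and the strongest one (38809869 to 38810622 on chromosome 6) had 278 in Foxp3creCREBfl/fl and 688 in CREBfl/fl. Next came the domain nearest to *Pabpc1* (-0.53, -0.64 to -0.41) and that at *Cdk19*, which encodes a kinase of the Mediator complex (-0.49, -0.71 to -0.28), where 4 of 8 regions had no counterpart. The last of the 5 lowest were domains nearest to *Zfp990* (-0.49, -1.17 to 0.16) and *Zfp978* (-0.45, -0.89 to -0.02), which rested on 1 and 3 shared regions.

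The highest summed ratios were those of *Fars2*, *Dop1b*, *Elmo1*, *Samsn1*, and *Dlx1* with *Dlx2*. *Fars2*, which encodes a mitochondrial tRNA synthetase, had sums of 281 in Foxp3creCREBfl/fl and 321 in CREBfl/fl (0.39, 0.15 to 0.62). One intronic region (36203151 to 36203262 on chromosome 13), shown above with its AP-1 word, had 50 in Foxp3creCREBfl/fl and 27 in CREBfl/fl (1.47, 0.77 to 2.202), and 6 of the 7 shared regions had intervals that included 0. At *Dop1b* the sums were 573 in Foxp3creCREBfl/fl and 666 in CREBfl/fl (0.36, 0.20 to 0.53), and all 7 shared regions were above 0. *Elmo1*, which encodes an activator of RAC signaling, had 0.28 (0.12 to 0.43), *Samsn1*, which encodes an adaptor of lymphocytes, 0.27 (0.10 to 0.44), and *Dlx1* with *Dlx2*, homeobox genes, 0.27 (0.09 to 0.44). Ratios fell with CREBfl/fl pileup. In the lowest of the 5 pileup bins the median was 0.24 in member and 0.21 in other distal regions. In the highest bin it was -0.08 in member and -0.04 in other distal regions. The *Fars2* region with a CREBfl/fl pileup of 27 lay in the lowest bin. The part of low pileup in the highest ratios was not tested.

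**Figure D4:**
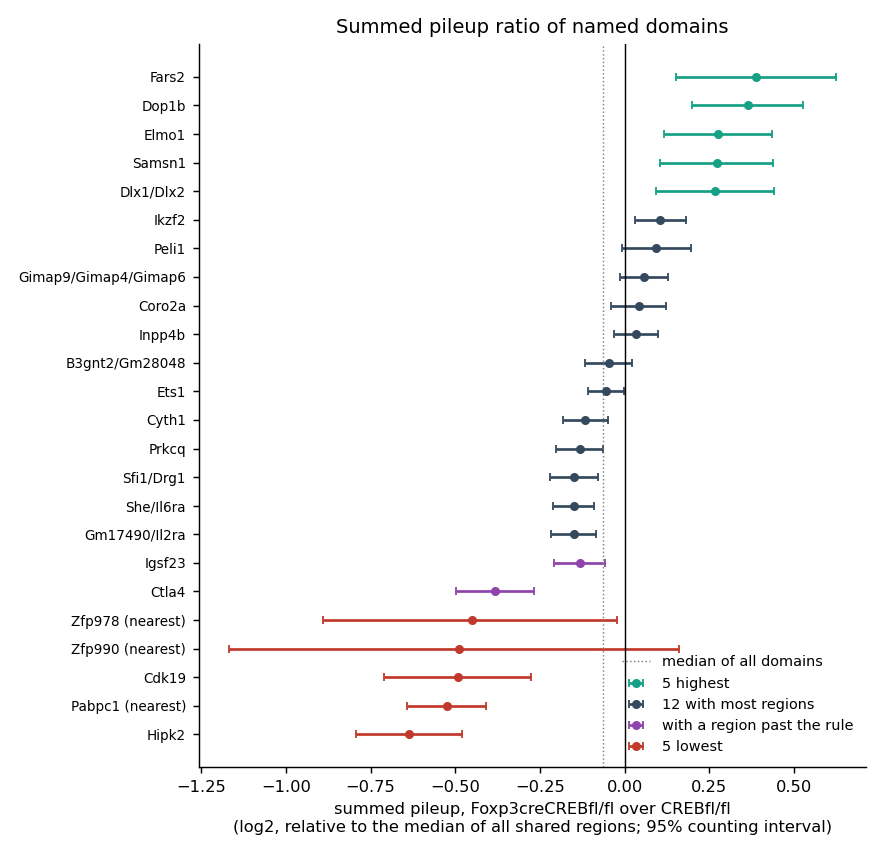
Summed pileup ratio of Foxp3creCREBfl/fl to CREBfl/fl (horizontal axis, log2, relative to the median of all shared regions) with exact binomial 95% intervals for the 5 highest domains, the 12 with the most regions, the others with a region past the stricter rule, and the 5 lowest (vertical axis). *Hipk2* stands at -0.64 and *Fars2* at 0.39, and the dotted line is the median of all 637 domains.

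The place of a domain on its chromosome was also examined. *Ctla4* lies near *Creb1* on chromosome 1, and the domain with the region past the rule was 3.64 Mb from it. Within 10 Mb of *Creb1* were 11 domains, 5 of them with a summed ratio under 0, and a median of 0.05, against 431 of the other 626 and a median of -0.07. The 3 domains of *Ikzf2*, with summed ratios of 0.12, 0.20 and 0.10, were among these 11. The domain at *Klf7*, which encodes a zinc finger factor, was the nearest, at 0.44 Mb. The domain nearest to *Pabpc1* was 1 of 3 between 25 and 40 Mb of chromosome 15, of which 2 were under 0. Both groups carry the floxed *Creb1* alleles, and *Foxp3*, from which the Cre is driven, lies on chromosome X. Whether DNA that came along with the engineered alleles has a part in these values was not tested.

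Upstream of *Il10*, the gene of an anti-inflammatory cytokine, a dense domain ended 8.84 kb from the start site (chr1:130987610-131011009). It had 10 regions in Foxp3creCREBfl/fl and 9 in CREBfl/fl, and all 9 had a counterpart. The summed ratio was -0.003 (-0.10 to 0.09), with 2 regions below and 2 above 0 by their intervals. One of those below (131003110 to 131003732) holds a full CRE and had 164 in Foxp3creCREBfl/fl and 300 in CREBfl/fl (-0.29, -0.57 to -0.01).

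The motif with the largest relative difference between member and other distal regions, of the 11 searched, was that of CTCF. Words were searched on both strands from 100 bases before to 100 bases after each summit. The CTCF motif, bound by the factor at chromatin loop anchors, was in 1.17% of member regions (0.94 to 1.45) and in 3.79% of other distal regions (3.65 to 3.93). The RUNX word TGTGGTT was in 10.2% of member (9.54 to 10.98) and 11.4% of other distal regions (11.2 to 11.6), and the GATA word AGATAA in 11.9% of member (11.1 to 12.7) and 10.7% of other distal regions (10.5 to 10.9), so these intervals did not overlap either. The AP-1 word was in 8.79% of member and 9.22% of other, and the ETS word AGGAAGT in 16.5% of member and 16.9% of other. The half-site TGACG, which every CRE holds, was in 10.7% of member and 10.04% of other distal regions, and the full CRE in 0.561% of member and 0.482% of other, with intervals that overlapped. In GC content both sets had a median of 47.8%.

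Member regions with a lower pileup in Foxp3creCREBfl/fl more often held the half-site, and those with a higher pileup the AP-1 word. The half-site was in 24.0% (20.8 to 27.5) of the 625 member regions with an interval below 0 and in 9.73% (6.52 to 14.3) of the 226 with one above 0. These are counts of CREBfl/fl regions, several of which can share a merged region. AP-1 was in 4.00% (2.72 to 5.84) of the lower and 22.6% (17.6 to 28.4) of the higher ones. The same was seen outside the domains, with the half-site in 22.8% where the interval was below 0 and 9.37% where it was above, and AP-1 in 6.77% where it was below and 24.1% where it was above. The half-site was not the only word more frequent in the lower regions. The ETS word was in 19.8% (16.9 to 23.1) of the lower and 10.6% (7.24 to 15.3) of the higher member regions. Outside the domains it was in 24.2% of the lower and 17.6% of the higher ones. For the other words searched, RUNX among them, the intervals of lower and higher member regions overlapped. The difference between dense domains and other distal regions in these shares was not tested. The 596 member regions with a half-site and a ratio had a median of -0.15, against -0.08 for 6130 other distal regions with it. The 34 with a full CRE had -0.20, against -0.14. Member regions were lower in general, with a median of -0.054 against -0.004, and also with the AP-1 word, at 0.03 against 0.10. The part of this general difference in the values for the half-site and CRE was not tested.

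**Figure D5:**
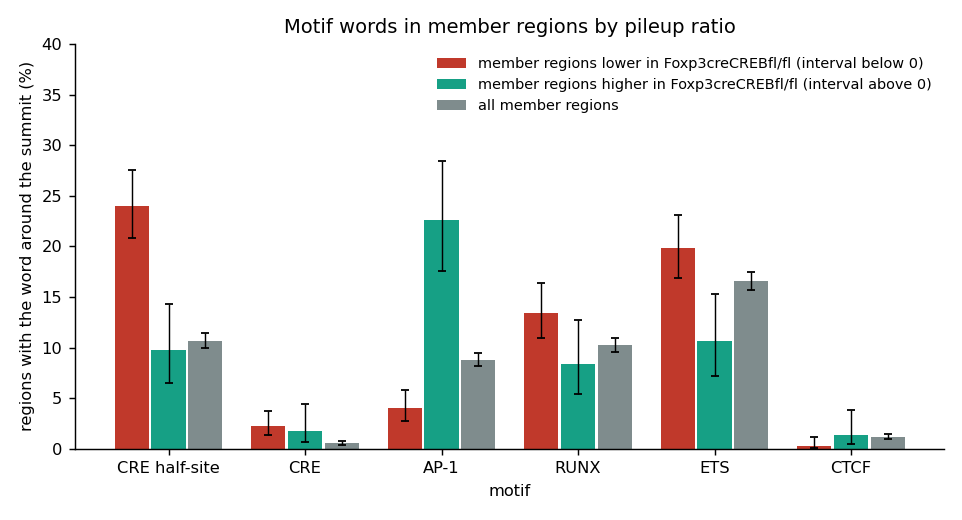
Percentage of member regions that hold each word around the summit (vertical axis) by motif (horizontal axis), for regions with a pileup ratio interval below 0, above 0, and for all member regions, with Wilson 95% intervals. The half-site stands at 24.0% in the lower regions and the AP-1 word at 22.6% in the higher ones.

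The 38 member regions with a CRE lay in 37 domains, and 3 of them, at *Stk17b*, *Jak1* and *Capzb*, had no counterpart. Of the 34 with a ratio, 14 had an interval below 0 and 4 one above 0. The window nearest to *Usp3*, shown above, had pileups of 37 in Foxp3creCREBfl/fl and 109 in CREBfl/fl (-0.98, -1.56 to -0.43). *Fam169b* had 152 in Foxp3creCREBfl/fl and 387 in CREBfl/fl (-0.77), *Pitpnm2* 103 in Foxp3creCREBfl/fl and 260 in CREBfl/fl (-0.76), and *Leprotl1* 56 in Foxp3creCREBfl/fl and 140 in CREBfl/fl (-0.74). In T cell genes, the CRE region in an intron of *Il2ra* (11653154 to 11654011 on chromosome 2) had 441 in Foxp3creCREBfl/fl and 802 in CREBfl/fl, a ratio of -0.28 (-0.45 to -0.11). That of *Cytip* had 705 in Foxp3creCREBfl/fl and 1212 in CREBfl/fl (-0.20, -0.34 to -0.07). The CRE regions with an interval above 0 were nearest to *Il6st* and at *Atxn1*, *Tmpo* and *Rinl*, with ratios of 0.87, 0.63, 0.55 and 0.44. At *Il6st* the pileups were 94 in Foxp3creCREBfl/fl and 77 in CREBfl/fl, and at *Atxn1* 168 in Foxp3creCREBfl/fl and 162 in CREBfl/fl. The AP-1 windows shown above had pileups of 56 in Foxp3creCREBfl/fl and 31 in CREBfl/fl at *Tox* (1.43, 0.78 to 2.12), and 257 in Foxp3creCREBfl/fl and 205 in CREBfl/fl at *Cd28* (0.91, 0.64 to 1.18). Genes named here for their CRE or AP-1 regions were chosen after their values were seen.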

How the data were processed

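ATAC-seq libraries of splenic Tregs, 3 per group by the labels, were available as 1 list of peaks per group. The authors used Trim Galore for trimming and Bowtie2 for alignment, dropped duplicate fragments, kept high-quality alignments by SAMtools and called peaks with MACS2. Versions were not named. How the libraries were joined was not named either. The methods name a setting without local backgrounds, while the lists hold local backgrounds. The deposited lists hold a ratio, the authors' fold of the pileup over the background at the summit, and the authors' p-values and q-values as -log10, with the summit offset. The labels and methods name mm9, but positions fit GRCm38: of 41219 start sites, 58.6% lay within 1 kb of a Foxp3creCREBfl/fl peak and 59.2% of a CREBfl/fl peak, against 12.4% and 13.3% after a shift by 100 kb.

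The whole pileup k was recovered from fold and p, within 0.002 on the -log10 scale, for 99.97% of Foxp3creCREBfl/fl and 99.94% of CREBfl/fl peaks. Start sites came from the basic GENCODE vM21 annotation. Genes of a domain are the protein-coding genes that overlap it, or else the nearest start site. Overlapping peaks of both lists were merged, the highest pileup of each list was taken, and log2 ratios were set relative to the median of 0.15 over 82009 shared merged regions. Intervals of ratios are exact conditional binomial and those of shares are Wilson, both at 95%, and cover counting error only. No test was run, as there is 1 list per group. The members and the gene lists were chosen with earlier results of these data known. Named with values were the 12 domains with the most regions, the 5 lowest and 5 highest summed ratios, the 5 largest losses (ties beyond 5 were added after seeing the data), every domain with a region past the rule, and up to 5 genes of each list with the largest domains (of 3 T cell receptor signaling genes tied at 11 regions *Cd28* was named). Values of 1 gene that this rule names are not reported here. The *Il10* domain was chosen after its values were seen. Scripts (Python 3.11.15, SciPy 1.17.1) were tested on simulated data. Shown sequences are from the GRCm38 reference.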

Additional observations from a re-analysis of the deposited data

How the results depend on the processing

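No paired analysis was possible because the files give 1 list per group. The number of dense domains followed the rule closely. It was 174 with a gap of 3 kb, 1753 with 10 kb, 1524 with a minimum of 6 regions, 308 with 10, and 269 with -log10 q of 10 or more in both lists. Domains with fewer Foxp3creCREBfl/fl than CREBfl/fl regions then numbered 130, 1172, 998, 217 and 192, and 149 when domains were built on the Foxp3creCREBfl/fl list.

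The share of member regions with a counterpart was 81.8% with a gap of 3 kb, 82.1% with a minimum of 6 regions, 84.2% with no promoter exclusion, 84.3% with the q threshold, 94.2% for domains built on the Foxp3creCREBfl/fl list and 76.1% with an overlap of 50% of both regions. Its difference from other distal regions, 1.18 points, was -0.23 with a gap of 3 kb and 0.11 with 6 regions. With strength matched after seeing the data it was -8.43 within 5 bins of pileup, -0.61 of -log10 p, 9.86 of the fold and -4.54 of local background.

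The median ratio of member regions was -0.043 with a gap of 10 kb, -0.037 with no promoter exclusion, -0.071 with the q threshold and, by construction, 0.10 without the shift to the median. Its difference from other distal regions, -0.049, kept its sign under all alternatives run, at -0.066 with the q threshold and at -0.020 within 5 bins of pileup, -0.082 of the fold and -0.014 of local background. Counting each summit line as a region changed no value, since each line is its own region. The cause of the other changes was not tested. With CREBfl/fl regions limited to those callable at the Foxp3creCREBfl/fl depth, 621 domains and a share of 83.7% were found.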
